A study of Petromyzon marinus with 6 samples.

Results

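The day 2.5 embryo of Petromyzon marinus, the sea lamprey, was compared with the embryo of day 2 after fertilization. Lampreys are vertebrates without jaws. The comparison uses 2 of the 6 RNA-seq libraries of a developmental series, chosen by their stage labels. The other 4 libraries come from days 1, 3, 4 and 5, and all 6 are of whole embryos with no treatment or genetic change named in the labels. Each stage has 1 library, so that stage and library cannot be told apart. No difference between the 2 stages has a replicate check. Below, intervals of folds and of shares of the counts cover counting error only. Intervals of shares of components treat components as independent draws, though some share a course or an assembler number. They measure no variation between embryos or libraries. How many embryos made up a library, and from which spawning, is not given in the sources used here. In RNA of whole embryos, fewer cells of a type and less RNA per cell cannot be told apart.

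At the start of development an animal embryo depends on RNA laid down in the egg by the mother. Later this maternal RNA is degraded and the embryo's own genome is transcribed, a handover called the maternal-to-zygotic transition. In the sea lamprey, somatic cells are also known to lose part of the germline genome early in development. A short interval between early stages can therefore hold RNAs that start, RNAs that are cleared and RNAs that change little.

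The day 2.5 library held 18387664 expected counts (estimated fragments) and the day 2 library 17598545, within the range of 15503476 to 21910119 over the 6 libraries. The values are given per assembled contig, and contigs that share an assembler component number were summed to components, since near-identical contigs divide their reads. In all 31146 of 87262 components had 60 or more counts over the 6 libraries and were compared. They held 99.2% of the counts at day 2.5 and 99.4% at day 2. Levels are in CPM, the counts scaled to a common library total after TMM, a correction for RNA composition, and folds are differences of log2(CPM + 0.5), which understate the change of low components. Neither the files nor the reference table links a contig to a gene name, so the identity and the function of every transcript below are unknown here, and at most 2 components that were higher and 2 that were lower are named.

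Some contigs do not follow a simple time order over the libraries. In 637 of 47525 compared contigs the libraries of days 1, 2.5 and 5 stood apart from those of days 2, 3 and 4. Each of the former was more than 4-fold higher (203 contigs) or lower (434) than each of the latter. The summed counts did so in 23 of 31146 components. For contigs, no other division of the libraries is given here. The day 2.5 and day 2 libraries lie on opposite sides of this division, which was noticed in these same data. A further 96 of the 31146 had more than 4 times the CPM in each of the libraries of days 2.5, 4 and 5 than in any of days 1, 2 and 3. What these divisions stem from was not tested. The counts of changed features and their fate at day 3 are given with and without the features concerned.

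Large changes between day 2.5 and day 2 were few. A component was called changed when its fold was past 4 and 1 lay outside the fold's 95% counting interval, from exact Clopper-Pearson limits. By this rule 200 components were higher at day 2.5 (0.642% of those compared) and 92 were lower (0.295%), together 0.938%. Without the components counted at days 2.5, 4 and 5, 116 were higher and 92 lower. Of the 23 components that set days 1, 2.5 and 5 apart, 1 is among the higher ones and 13 are among the lower ones (14.1% of these), and without them 199 were higher and 79 lower. The count depended on the settings: 562 components changed with the deposited TPM in place of TMM-scaled counts, and 10 with a pseudocount of 5. At 2-fold, 1600 were higher and 936 lower, and at 16-fold 3 were higher and 5 lower. The 200 higher components together took 0.209% of the counts at day 2.5 and 0.0246% at day 2. The 92 lower ones took 0.0226% at day 2.5 and 0.147% at day 2. Of the 200, 93 had 100 or more counts at day 2.5 (46.5%, against 42.5% of all compared), and of the 92, 46 had 100 or more at day 2 (against 41.2%). These counts come from the library in which the call made them high. By geometric mean count of the 2 libraries, changed components were more frequent at low counts. Their share was 2.55% at 5 to 10 counts, 1.00% at 30 to 100 and 0.167% at 300 to 1000. Few were abundant: 6 of the 200 had 1000 or more counts at day 2.5, where 3609 of all 31146 did, and 3 of the 92 had as many at day 2, where 3436 did. Of the 200, 65 would have had under 60 counts over the other 5 libraries and so entered the comparison only through day 2.5; of the 92, 18 entered only through day 2. At day 2, 37 of the 200 had 0 counts, as had 776 of all 31146. At day 2.5, 14 of the 92 had 0, as had 511 of all 31146.

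**Figure D1:**
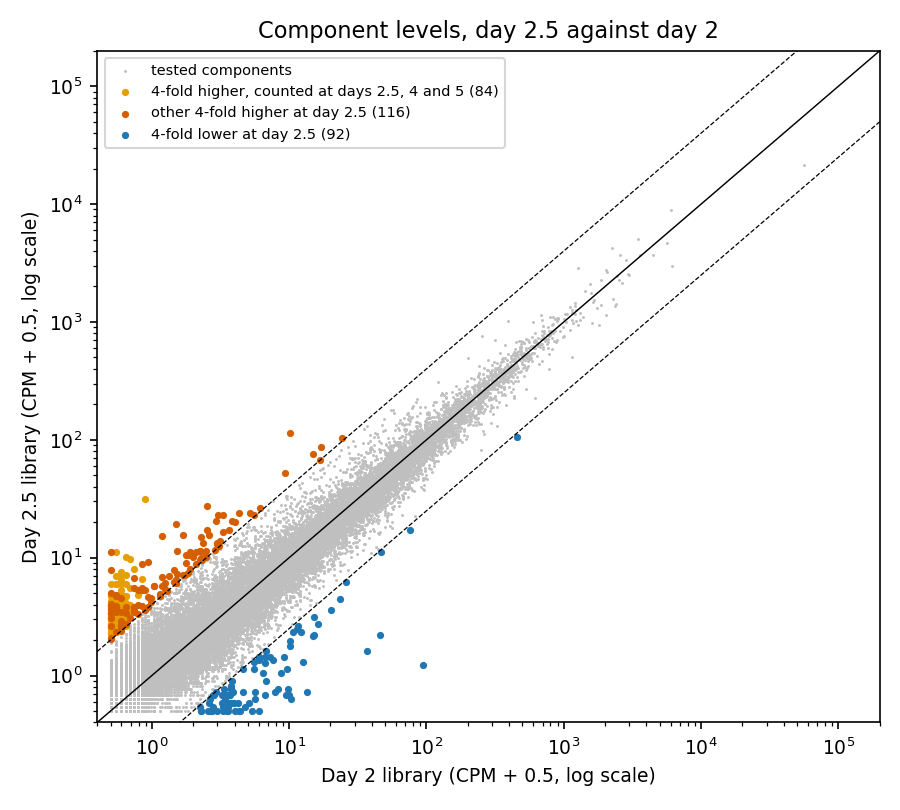
CPM + 0.5 of each compared component in the day 2.5 library (vertical) and the day 2 library (horizontal), both on log scales; the solid line marks equal levels and the dashed lines a 4-fold difference. Few of the 200 components called higher and the 92 called lower reach high levels, and nearly all abundant components lie between the dashed lines.

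The component with the largest fold upward was lcl|comp258991_c0, made of 3 contigs of which the longest has 2303 nt. It had 0 counts on day 1, 8 on day 2, 683 on day 2.5, then 3, 133 and 164 on days 3, 4 and 5. Its level at day 2.5 was 30.9 CPM against 0.395 CPM at day 2. The log2 fold was 5.13, and the ratio of the 2 levels was 78.1 (interval 39.4 to 182). It is one of the components counted at days 2.5, 4 and 5. It was near 0 again at day 3, and in none of its 3 contigs was the count at day 2 or day 3 above 5.

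The next was lcl|comp291326_c0, made of 5 contigs of at most 707 nt. It was counted in 2 libraries only, with 236 counts at day 2.5 and 32 at day 5, and had 0 counts at days 1, 2, 3 and 4. Its day 2.5 level of 10.7 CPM was 72.0 times that of a day 2 library with 3 counts, the floor used for a count of 0. The lower limit of the counting interval of its ratio to day 2 was 58.1. Of its contigs, 3 held all counts at day 2.5 (67, 110 and 59) and the other 2 had none in any library. Its high level at day 2.5 had no counterpart at day 3.

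The component with the largest fold downward was lcl|comp292953_c0, a single contig of 3927 nt. It had 16 counts at day 2.5 against 1891 at day 2, after 5 on day 1 and before 1497, 1230 and 2256 on days 3, 4 and 5. Its level was 0.723 CPM at day 2.5 against 93.4 CPM at day 2. The log2 fold was -6.26, and the ratio of day 2 to day 2.5 was 129 (interval 79.3 to 226). Days 1 and 2.5 were low, and the other 4 libraries were all high, so that the low level at day 2.5 stood between similar levels at days 2 and 3.

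The second was lcl|comp278575_c0, of 3 contigs with a longest of 2135 nt. It had 25 counts at day 2.5 against 741 at day 2, after 50 on day 1 and before 145, 14 and 4 on days 3, 4 and 5. Its level was 1.13 CPM at day 2.5 against 36.6 CPM at day 2, and the log2 fold was -4.51. At day 3 it was 4-fold above day 2.5 and still 4-fold below day 2. Nearly the whole difference came from 1 contig of 1835 nt, which had 710 counts at day 2, 145 at day 3 and 0 at days 1, 2.5, 4 and 5. Another contig of the same component, of 1726 nt, had 50, 31 and 25 counts at days 1, 2 and 2.5, then 0, 14 and 0 on days 3, 4 and 5.

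Most of the higher components were no longer high at day 3. Measured against the same day 2 library, 23 of the 200 were still 4-fold higher at day 3, or 11.5% (exact 95% Clopper-Pearson interval 7.43% to 16.8%), where 6.27% of all compared components were 4-fold higher at day 3 than at day 2. At day 3, 142 of the 200 lay within 2-fold of their day 2 level, 43 lay more than 2-fold above it and 15 more than 2-fold below it. Under 3 counts were found in 92 of the 200 at day 2 and in 81 at day 3. Where both counts are that low, the pseudocount alone keeps the fold within 2-fold. The share of all compared components within 2-fold is not given here. Compared with day 2.5, 141 of the 200 were 4-fold lower at day 3 (2.4% of all compared) and 3 were 4-fold higher still (5.17%). Without the components counted at days 2.5, 4 and 5, 23 of 116 lasted, or 19.8%, and 57 were 4-fold lower at day 3 than at day 2.5. Of these 116, 58 lay within 2-fold of day 2 at day 3 (50%). Without the component that sets days 1, 2.5 and 5 apart, 23 of 199 lasted and 140 were 4-fold lower at day 3 than at day 2.5. With the deposited TPM, 23.2% of 396 higher components lasted. The comparisons of day 3 share the day 2 or the day 2.5 library with the one that chose the components, so that an extreme count in the shared library enters both. Of the 200, 65 had under 60 counts over the libraries other than day 2.5, as had 34 of the 116. The filter thereby limits their day 3 level, and the shares given here keep them.

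Most of the lower components were back up at day 3. At day 3, 58 of the 92 were 4-fold higher than at day 2.5, or 63.0% (interval 52.3% to 72.9%), against 5.17% of all compared. There were 3 that were still 4-fold below day 2, or 3.26% (0.678% to 9.23%), where 2.13% of all compared were 4-fold lower at day 3 than at day 2; with the deposited TPM, 15.1% of 166 lower components stayed low. Without the 13 components that set days 1, 2.5 and 5 apart, 45 of 79 were back up (57.0%) and 3 stayed low (3.80%). These comparisons share the day 2.5 or the day 2 library with the choice of the 92, so that an extreme count there enters both. The compared components as a whole were not chosen in this way, so their shares are not a like-for-like contrast. Of the 92, 18 had under 60 counts over the libraries other than day 2. The filter thereby limits their day 3 level, and the shares keep them. By level, 46 of the 92 lay within 2-fold of day 2 at day 3, 19 lay more than 2-fold above and 27 more than 2-fold below. For these counts, too, the share of all compared components is not given here. Without those 13, 33 of 79 lay within 2-fold. Over the whole comparison, 141 components were 4-fold higher at day 2.5 than at both day 2 and day 3, and 58 were 4-fold lower than at both. The same counts against both neighbouring stages were 59 and 12 for day 2, 44 and 37 for day 3, and 59 and 54 for day 4. Of the 141, 84 belong to the components counted at days 2.5, 4 and 5, and 57 remain without them. Of the 58, 45 remain without those 13. Stages are not evenly spaced, and no test of these differences was possible with 1 library a stage.

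**Figure D2:**
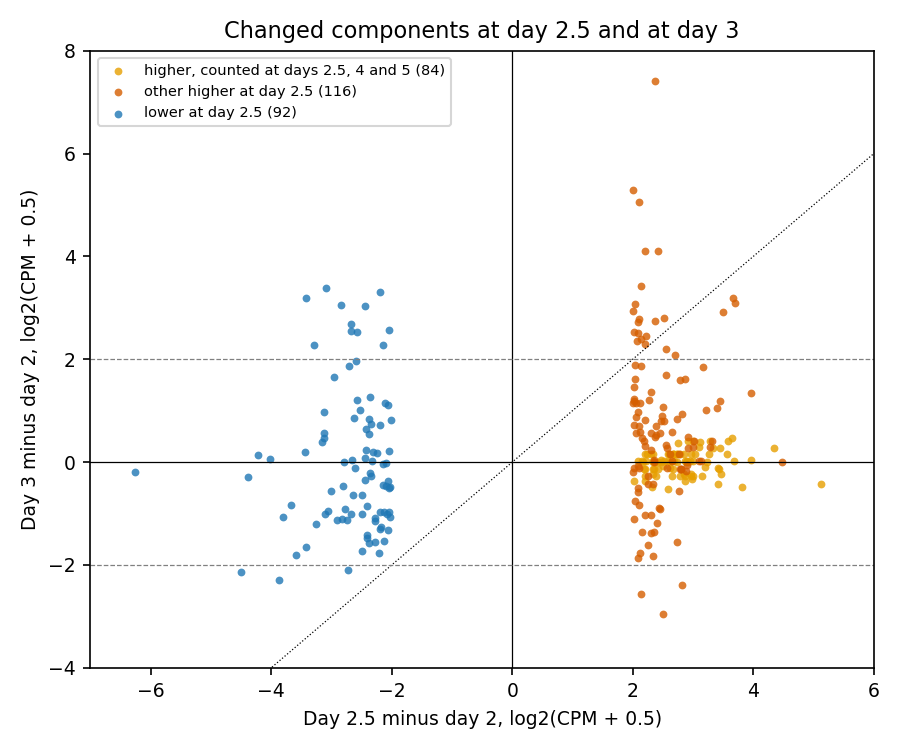
Each changed component by its difference between day 2.5 and day 2 (horizontal) and between day 3 and day 2 (vertical), both in log2(CPM + 0.5); dashed lines mark 4-fold at day 3 and the dotted line equal differences. Of the 200 higher components 142 lie within 2-fold of day 2 at day 3, and of the 92 lower ones 46 do. Both axes share the day 2 library. The pseudocount holds components with few counts at both day 2 and day 3 near equal levels on the vertical axis.

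The higher components formed 4 groups by their course over the 6 libraries. The largest, of 84, belonged to the components counted at days 2.5, 4 and 5. The median of the group was 73.5 counts at day 2.5 against 1 at day 2, after 0 on day 1 and before 1, 23.5 and 39 on days 3, 4 and 5. None of the 84 had more than 8 counts at day 2 or more than 6 at day 3, while each had 39 or more at day 2.5. All 84 were 4-fold lower at day 3 than at day 2.5, which their definition fixes in large part.

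The 96 components from which these 84 come divided their counts in much the same way. The median component had 53.1% of its own counts at day 2.5 (interquartile range 48.4% to 56.5%), 17.6% at day 4 (15.2% to 20.9%) and 27.3% at day 5 (23.8% to 30.0%). Together the 96 took 7959 counts at day 2.5 against 171 at day 2, with 11 on day 1 and 139, 2884 and 4185 on days 3, 4 and 5. Of the 84, 69 were single contigs (82.1%, against 57.0% of all compared components), and the median length of the longest contig was 838 nt, against 1292 nt. They were thus shorter and less branched in the assembly than the compared components as a whole. No comparison with components of like counts was made, and the cause of their shared course was not tested.

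The second group held the 23 components whose rise lasted to day 3. Their median was 211 counts at day 2.5 against 24 at day 2, after 5 on day 1 and before 223, 257 and 215 on days 3, 4 and 5. Of these 23, 17 were 4-fold above day 2 at day 4 and 16 at day 5. Both counts share the day 2 library with the choice of the 23, and the matching shares of all compared components are not given here. Together the 23 took 0.0571% of the library at day 2.5 against 0.00901% at day 2, and 0.196% on day 3 and 0.385% on day 5. The growth after day 2.5 lay mainly in 3 members, which took 0.0217%, 0.162% and 0.343% of the library on days 2.5, 3 and 5. The other 20 took 0.0354%, 0.0341% and 0.0420% on the same days. The longest contigs of the 23 had a median of 1989 nt, and 10 were single contigs.

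Those 3 members, each a single contig, were those that exceeded their day 2.5 level 4-fold at day 3. One of 1668 nt had 243 counts at day 2.5 against 35 at day 2, after 0 on day 1 and before 6925, 14339 and 14196 on days 3, 4 and 5. One of 1486 nt had 151, 477, 2269, 14615, 20647 and 20868 counts from day 1 to day 5, with day 2.5 as the third value. One of 726 nt had 35, 330, 1484, 12037, 17530 and 18179 in that order. For all 3 the step from day 2 to day 2.5 was smaller than the step that followed it: the log2 folds over day 2 were 2.37, 2.10 and 2.01 at day 2.5 and 7.42, 5.06 and 5.30 at day 3.

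Another 3 of the 23 stood out by the size of their step at day 2.5 and were lower at day 3. A component of 14 contigs had 418 counts at day 2.5 against 20 at day 2, a ratio of 19.1 (12.2 to 31.6), with 223, 273 and 1153 counts on days 3, 4 and 5. A component of 2 contigs had 325 counts at day 2.5 against 14 at day 2 and 190 at day 3, then 17 and 24 at days 4 and 5. A single contig of 814 nt had 2526 counts at day 2.5 against 195 at day 2, a ratio of 11.9 (10.2 to 13.8). It had 18 counts on day 1 and 1395, 607 and 394 on days 3, 4 and 5, and was the most abundant of the 200 at day 2.5.

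The third group held 12 components whose day 1 level, too, was 4-fold above day 2 (0.671% of all compared). Their median was 300.5 counts at day 2.5 against 38.5 at day 2, after 313 on day 1 and before 3.5, 6.5 and 38 on days 3, 4 and 5. Their CPM at day 1 was 0.670 to 1.19 times that at day 2.5, and their CPM at day 2.5 was 5.09 to 9.65 times that at day 2. The largest had 1926 counts at day 2.5 against 337 at day 2, with 1736 on day 1 and 113, 66 and 440 on days 3, 4 and 5. In these 12 the day 2 library was low between days 1 and 2.5, which their choice fixes, and the levels were low again from day 3 to day 4. Of all 200, 16 were 4-fold lower at day 1 than at day 2 (4.27% of all compared), and 173 were 4-fold higher at day 2.5 than at day 1 (6.92%). The first count shares the day 2 library with the choice of the 200, and the second the day 2.5 library. A low day 2 count or a high day 2.5 count thus enters both.

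The remaining 81 higher components had a median of 111 counts at day 2.5 against 9 at day 2. The median was 1 on day 1 and 15, 11 and 14 on days 3, 4 and 5, so that the group median was highest at day 2.5. The choice of the 81 fixes this in part. It left out components 4-fold above day 2 at day 1 or day 3, and those counted at days 2.5, 4 and 5. Of the 81, 45 were 4-fold lower at day 3 than at day 2.5. One single contig of 1536 nt had 242 counts at day 2.5 against 21 at day 2, after 3 on day 1 and before 18, 8 and 1 on days 3, 4 and 5. A component of 3 contigs had 1, 57, 501, 46, 18 and 2 counts in that order too. Both were counted almost wholly from day 2 to day 4, with 1 high library among the 6.

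**Figure D3:**
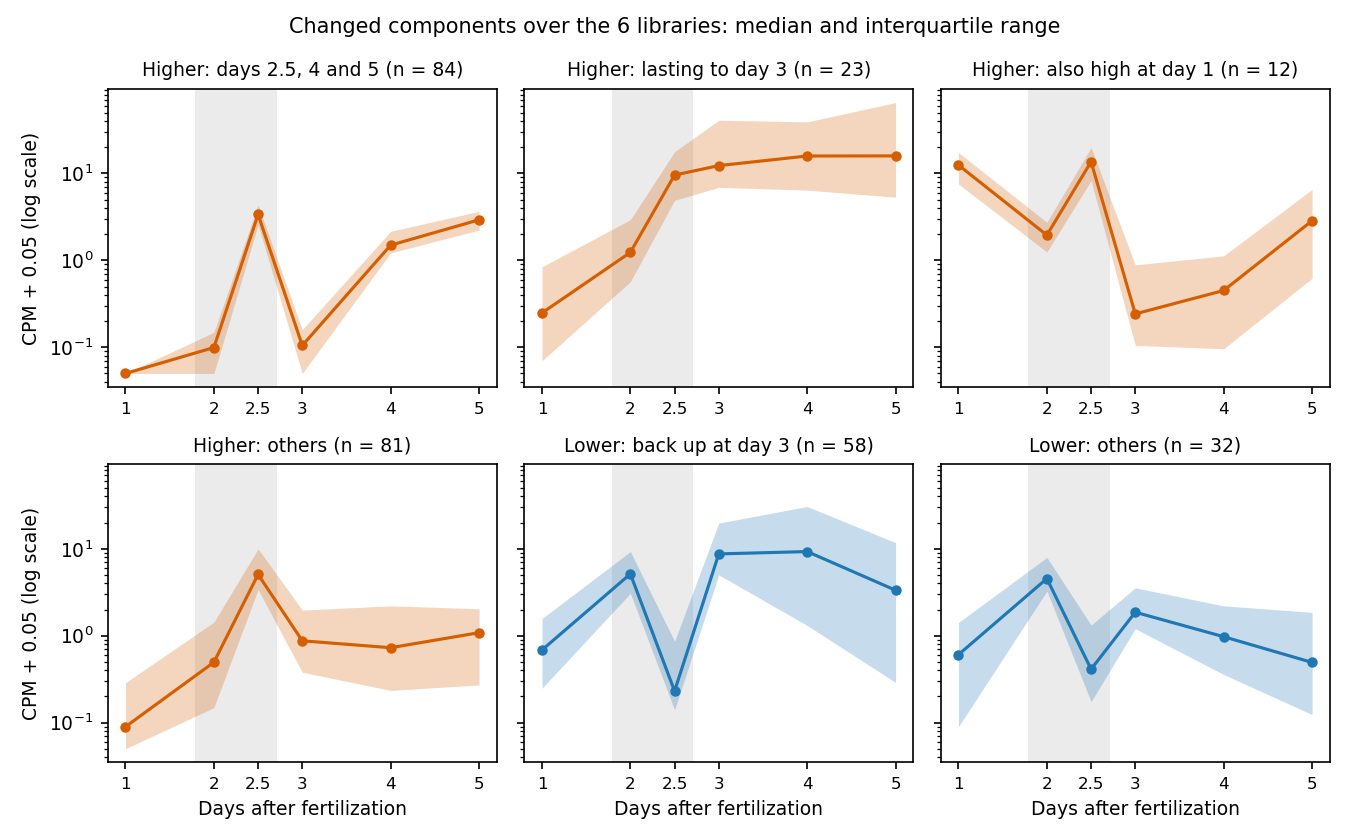
CPM + 0.05 on a log scale over the 6 libraries for the groups of changed components; points are medians, shaded bands interquartile ranges over components, and the grey strip marks days 2 and 2.5. Median counts of the group of 84 are 73.5 at day 2.5 against 1 at day 2 and 1 at day 3, those of the group of 23 stay at 211 or more from day 2.5 on, and those of the 58 lower components are 4 at day 2.5 against 103 at day 2 and 158 at day 3; the 2 components that stayed 4-fold below day 2 without being back up are not drawn.

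The 58 lower components that were 4-fold higher again at day 3 had a median of 4 counts at day 2.5 against 103 at day 2, after 16 on day 1 and before 158, 150 and 44.5 on days 3, 4 and 5. They include the named component of 2135 nt, which was also still 4-fold below day 2. Without the 13 components that set days 1, 2.5 and 5 apart, 45 remain, with a median of 5 counts at day 2.5 against 103 at day 2 and 222 at day 3. The lower components that were neither back up nor still 4-fold below day 2 numbered 32, none of them among those 13, and had a median of 8 counts at day 2.5 against 91 at day 2, with 14 on day 1 and 33, 15 and 6 on days 3, 4 and 5. In both groups the median was lower on days 1 and 2.5 than on days 2 and 3. The calling rule fixes day 2 above day 2.5, and the choice of the 58 fixes day 3 above day 2.5. Of all 92, 59 were 4-fold lower at day 1 than at day 2, against 4.27% of all compared. That comparison shares the day 2 library with the choice of the 92, so that a high count there enters both. Of the remaining 2, which stayed 4-fold below day 2 and were not back up, 1 had 4 counts at day 2.5 against 191 at day 2, with 0 on day 1 and 28, 6 and 4 on days 3, 4 and 5.

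Some lower components share an assembler number. The 92 components carry 81 assembler numbers, since a number can be divided into several components, and 18 of the 92 share their number with another of them. Under 1 number, 4 components of 838 to 1288 nt together had 17 counts at day 2.5 against 666 at day 2, with 7 on day 1 and 661, 151 and 1 on days 3, 4 and 5. Under another, 4 components of 515 to 1175 nt had 28 counts at day 2.5 against 515 at day 2, with 791 on day 1 and 4077, 7617 and 2349 on days 3, 4 and 5. The first set was counted chiefly at days 2, 3 and 4, and the second was lowest at day 2.5. The 200 higher components carry 194 numbers.

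Only 3 of the lower components had 1000 or more counts at day 2. The most abundant was a single contig of 918 nt with 2321 counts at day 2.5 against 9263 at day 2 (log2 fold -2.12), with 1412 on day 1 and 18426, 11216 and 3825 on days 3, 4 and 5. Its level was 105 CPM at day 2.5, against 457 CPM at day 2 and 1012 CPM at day 3. A single contig of 4423 nt had 370 counts at day 2.5 against 1527 at day 2 and 1008 at day 3. The third is the named component of 3927 nt. All 3 were higher at both neighbouring stages than at day 2.5.

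Abundant components shifted little. In all 3219 components had 1000 or more counts in both libraries, and they took 75.4% of the counts at day 2.5 and 76.3% at day 2. Their log2 folds had a median of -0.03, an interquartile range from -0.22 to 0.15 and an SD of 0.34 over components. Of them, 117 were 1.5-fold or more higher at day 2.5 (3.63%) and 142 were 1.5-fold or more lower (4.41%), together 8.05%. At 2-fold, 27 were higher and 15 lower, and at 4-fold 0 were higher and 1 was lower. With DESeq2 size factors, another scaling, the 1.5-fold counts were 148 higher and 110 lower, so that higher components made up 57.4% of the shifted ones and not 45.2%; which direction prevailed depended on the scaling.

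The same measure was larger in the other steps of the series. Of components with 1000 or more counts in both libraries compared, 48.6% shifted 1.5-fold or more from day 2.5 to day 3. The share was 18.1% for day 2 over day 1, 36.0% for day 4 over day 3 and 16.1% for day 5 over day 4. The SDs of the log2 fold in these 4 steps were 0.96, 0.48, 0.68 and 0.44, against 0.34 for day 2.5 over day 2. Each step compares 1 library with 1 library and the steps differ in length, so these values are given as descriptions.

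Even the small shifts of abundant components exceeded counting error. Among the 200 components with a geometric mean of 10000 or more counts, the robust SD of the log2 fold was 0.28, against 0.017 from counting alone. Among the 7283 components with 30 to 100 counts the values were 0.67 and 0.29. At low counts the spread was thus closer to counting error, and at high counts it was 16.3 times as large. Counting error does not include differences between embryos, extractions or library preparations, which 1 library a stage cannot show.

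**Figure D4:**
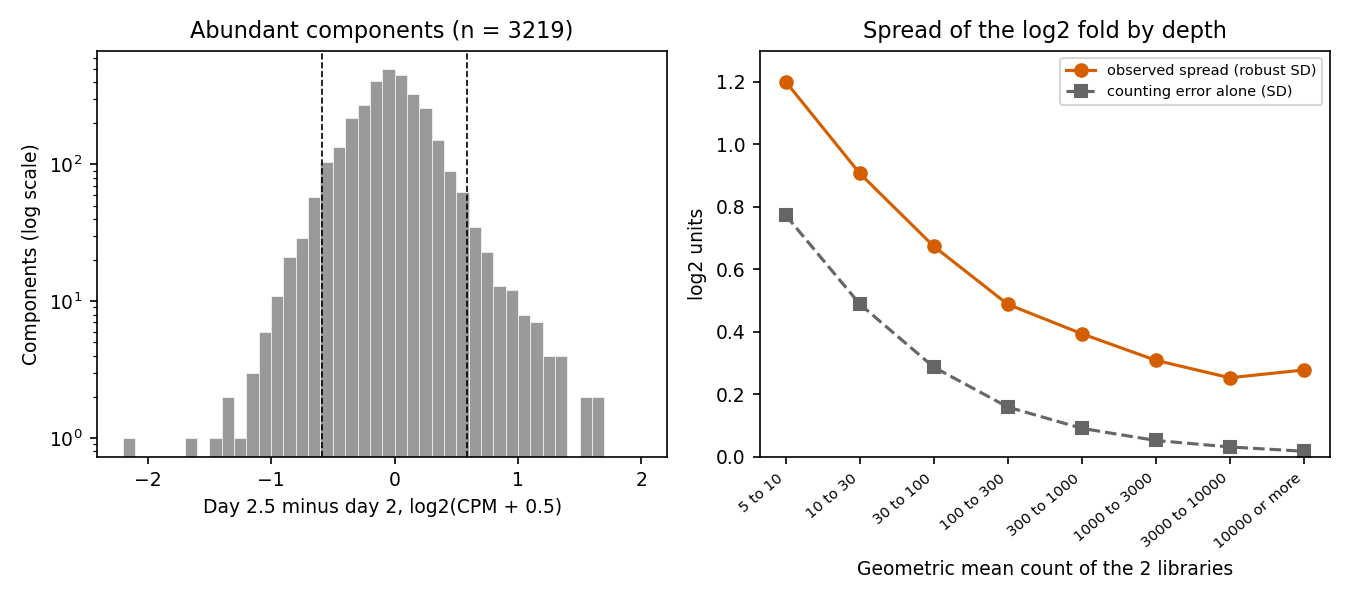
Left, the number of abundant components (log scale) by log2 fold of day 2.5 over day 2, with dashed lines at 1.5-fold; right, the robust SD of the log2 fold over components by geometric mean count (each count + 0.5), beside the SD that counting alone gives. Of the 3219 abundant components 259 lie outside the dashed lines, and the observed spread stays above counting error at every depth.

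By share of the library, 12.2 percentage points of the counts lay in different components at day 2.5 than at day 2. The most abundant component accounted for 31.5% of the points lost. It consists of 2 contigs of 7607 and 6757 nt and took 2.60% of the counts at day 2.5 (interval 2.59% to 2.61%) against 6.47% at day 2 (6.45% to 6.48%). Its counts were 477992 at day 2.5 and 1137752 at day 2, a ratio of 0.384 after scaling (0.383 to 0.386), and both of its contigs were lower at day 2.5. In every library it was the most abundant component, and at day 3 it was back at 8.34%. Without it 10.7 percentage points of the remaining counts lay in different components.

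Other losses and gains of share were small. The second largest loss was a single contig of 1679 nt with 65771 counts at day 2.5 against 123764 at day 2, a loss of 0.346 points, and it had 125986 counts at day 3. The largest gain was a single contig of 4107 nt with 196074 counts at day 2.5 against 121810 at day 2, or 0.374 points, and it kept 182841 counts at day 3. The next gain was a single contig of 5056 nt with 94674 counts at day 2.5 against 45294 at day 2. It had 77615 counts at day 1 and 32837 at day 3, so that day 2.5 was its highest library. The 10 largest gains added up to 1.59 points and the 10 largest losses to 4.92.

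The fourth largest gain was a component of 17 contigs that was nearly uncounted on day 1. It had 63696 counts at day 2.5 against 25712 at day 2, after 107 on day 1 and before 71048, 54391 and 35061 on days 3, 4 and 5. At day 2.5 it was 2.27 times its day 2 level (2.23 to 2.30). On the log2 scale most of its change lay before day 2, and the step to day 2.5 continued it.

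Most shifts of abundant components were still seen at day 3. Of the 117 that were 1.5-fold higher at day 2.5, 75 were 1.5-fold or more above day 2 at day 3 (64.1%), against 22.1% of all 3219. Of the 142 that were lower, 101 were 1.5-fold or more below day 2 at day 3 (71.1%), against 36.5%. These comparisons share the day 2 library. Day 3 against day 1 shares no library with the choice of these components, but it includes the change from day 1 to day 2. It therefore does not show whether a shift from day 2 lasted. In it, 87 of the 117 were 1.5-fold higher at day 3 (74.4%, against 30.5% of all 3219). Of the 142, 86 were 1.5-fold lower (60.6%, against 35.5%). Whether these components and the 292 with large changes differed in lasting was not tested.

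The 7 abundant components with the largest shift upward followed 2 courses. The top 4, at log2 folds of 1.54 to 1.69, were highest at day 2.5: a single contig of 2294 nt had 3916 counts at day 2.5 against 1104 at day 2, with 102 on day 1 and 1410, 753 and 376 on days 3, 4 and 5. A component of 5 contigs among them had 16834 counts at day 2.5 against 5117 at day 2, with 63 on day 1 and 4885, 2036 and 385 on days 3, 4 and 5. The 3 that followed, at 1.35 to 1.38, were higher still at day 3. A single contig of 1807 nt had 22327 counts at day 2.5 against 7915 at day 2, after 585 on day 1 and before 139592, 176010 and 194609 on days 3, 4 and 5. The eighth, of 4 contigs at a log2 fold of 1.33, had another course, with 4646 counts at day 2.5 against 1688 at day 2, after 8299 on day 1 and before 550, 175 and 739 on days 3, 4 and 5. The tenth was likewise high on day 1 and low from day 3. Of the 117, 36 were 4-fold or more above day 2 at day 3, where 98 of all 3219 were.

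The abundant components with the largest shift downward included several that recovered. After the contig of 918 nt described above, a component of 6 contigs had 1801 counts at day 2.5 against 5032 at day 2, with 6658 on day 1 and 5678, 5362 and 3105 on days 3, 4 and 5. The day 2.5 library was its lowest. Others went on falling: a single contig of 5931 nt had 2481 counts at day 2.5 against 5293 at day 2, then 1226 at day 3, 391 at day 4 and 451 at day 5. Of the 142, 27 were 4-fold or more below day 2 at day 3, where 130 of all 3219 were. There were 16 that were 1.5-fold or more above day 2 (11.3%, against 22.1% of all 3219).

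Counted by contig, the same pair of libraries differed far more. Of 47525 contigs with 60 or more counts over the 6 libraries, 1662 were 4-fold higher at day 2.5 (3.5%) and 1518 were 4-fold lower (3.19%), together 6.69%. Without the 637 contigs that set days 1, 2.5 and 5 apart from days 2, 3 and 4, 1538 were higher and 1194 lower. Of the higher contigs, 92.3% shared their component with another contig, and of the lower ones 96.2%, against 62.7% of all compared. In 208 of the 1662 and 91 of the 1518 the whole component was called in the same direction. This was largely fixed for the 128 of the 1662 and 57 of the 1518 that were the only contig of their component. In 1069 (64.3%) and 1134 (74.7%) the component differed by less than 1.5-fold, as it did for 77.7% of all compared contigs. In 425 components 1 contig or more was higher and another lower, and 340 of these components differed by less than 1.5-fold as a whole.

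Many of the changed contigs were listed at 0 in 1 of the 2 libraries. At day 2, 897 of the 1662 higher contigs were at 0, and 235 of these had 100 or more counts at day 2.5. At day 2.5, 1042 of the 1518 lower contigs were at 0, and 382 of these had 100 or more counts at day 2. The calling rule favours low counts in that library, and the shares of all compared contigs at 0 are not given here. Expected counts are divided among similar contigs by an estimate, so a listed 0 does not show that the sequence was absent. Of the nonzero expected counts of the higher contigs at days 2.5 and 2, 86.5% were over 0.005 away from the nearest whole number, of the lower contigs 92.1% and of all compared contigs 61.3%.

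The largest components with such an exchange show its course. In a component of 8 contigs, a contig of 5398 nt had 13553 counts at day 2.5 against 1905 at day 2, while a contig of 5418 nt had 0 at day 2.5 against 14510 at day 2. Over the 6 days the first had 19705, 1905, 13553, 0, 0 and 197 counts and the second 0, 14510, 0, 3663, 338 and 0. The component as a whole had 14956 counts at day 2.5 against 17750 at day 2 (log2 fold -0.37). In a component of 3 contigs, one of 2230 nt had 9898, 1044, 7430, 0, 0 and 260 counts and one of 2209 nt had 15, 7764, 182, 2356, 664 and 190. The contigs traded places at days 1 and 2.5 against days 2, 3 and 4, while the component total changed little between day 2 and day 2.5.

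Over 4124 components of 2 or more contigs with 100 or more counts in each of the 6 libraries, the contig with the most counts differed between day 2.5 and day 2 in 674, or 16.3%. Between day 2.5 and day 1 it differed in 570 (13.8%), the lowest value of the 15 library pairs, and between day 3 and day 2 in 846 (20.5%). Between day 3 and day 2.5 it differed in 998 (24.2%). For day 5 it differed less from day 4 (17.7%) than from day 2.5 (30.1%) or day 1 (31.6%). The component totals ranked differently, with 8.12% changed 4-fold for day 2.5 over day 1 and 0.938% for day 2.5 over day 2. In component levels the day 2.5 library thus differed less from day 2, and in which contig carried the counts it differed less from day 1.

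**Figure D5:**
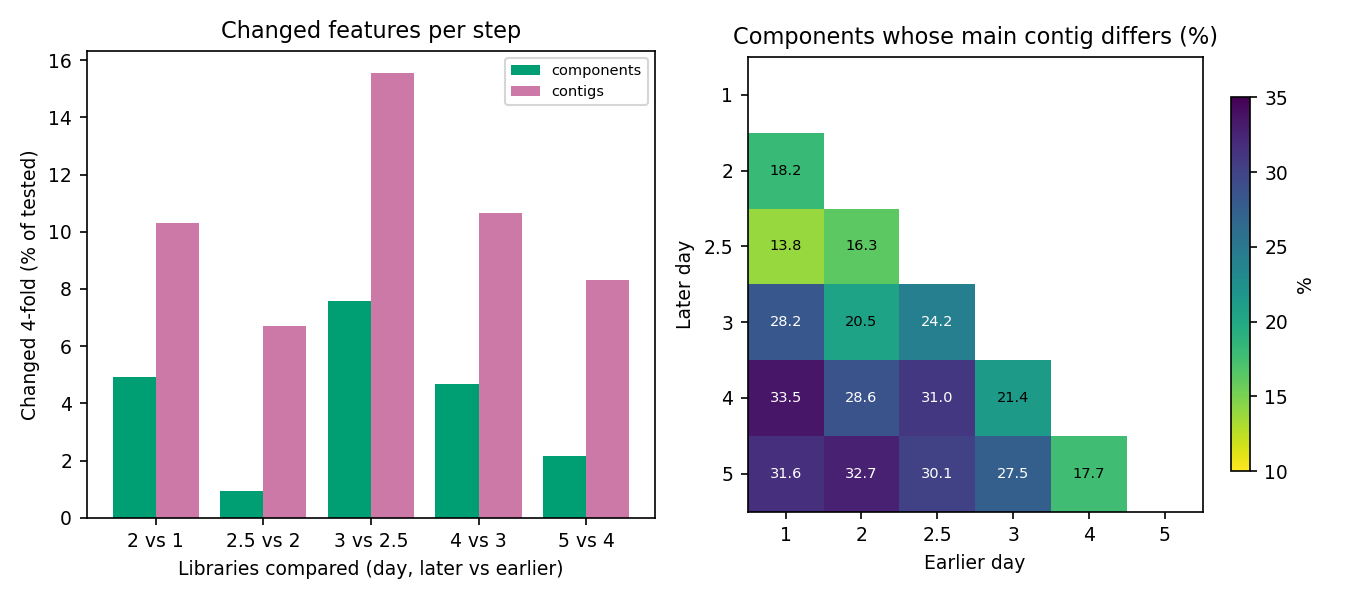
Left, the percentage of compared components and contigs changed 4-fold in each pair of consecutive libraries; right, the percentage of 4124 components whose most counted contig differs, for each pair of libraries (earlier day horizontal, later day vertical). Between day 2.5 and day 2, 0.938% of components and 6.69% of contigs changed, and the lowest value on the right is 13.8% between day 2.5 and day 1.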

How the data were processed

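RNA-seq of whole embryos at 6 stages was deposited as 1 table per library. Per the submitters' processing notes the authors used RSEM. Its version, how reads were aligned and how contigs were assembled is not given in the sources used here. The authors' expected counts, per the file headers, are estimated fragment counts per contig, not normalized, and their TPM values are scaled by effective length to the same sum in each library. All 145913 contigs (500 to 17827 nt) were quantified as genes of their own, and none matches an entry of the RefSeq name table.

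Expected counts were rounded and summed by component, and TMM factors (edgeR 4.0.16) were computed for components (1.20 at day 2.5, 1.15 at day 2) and for contigs. With 1 library per stage, folds and exact Clopper-Pearson intervals replaced tests. The named components are the called ones of largest fold whose higher library held at least 100 counts; examples without a name were chosen after their values were seen. Members, lists and groups were chosen with earlier results of these data known. Other scalings (DESeq2 1.42.0 and the deposited TPM), a pseudocount of 5, no filter and other thresholds were tried as alternatives. The software was R 4.3.3 and Python 3.11.15 with scipy 1.17.1, numpy 2.4.6, pandas 2.3.3 and matplotlib 3.10.9.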

Additional observations from a re-analysis of the deposited data

How the results depend on the processing

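Of the values recomputed under alternatives, 9 were classed as moved and 22 were not. Some of the 22 still differed clearly: without the components counted at days 2.5, 4 and 5, 208 changed, against 292. The log2 fold of lcl|comp291326_c0 was 6.48 with the deposited TPM, against 4.48. No named component's fold changed sign. The direction that prevailed turned for contigs with a pseudocount of 5 (130 higher, 206 lower, against 1662 and 1518). It also turned for abundant components with DESeq2 size factors (148 and 110, against 117 and 142). Causes were not tested unless given. The 292 changed components became 562 with the deposited TPM (396 higher, 166 lower), 10 with a pseudocount of 5, a setting under which low components give small folds, and 60 at 8-fold. The 3180 changed contigs became 336 with a pseudocount of 5 (38.7% higher, against 52.3%) and 292 when summed by component. With the deposited TPM, 23.2% of the higher components were still high at day 3, against 11.5%, and 15.1% of the lower ones were still low, against 3.26%; that scaling placed the median log2 fold of day 3 over day 2 at -0.45, where TMM placed it at -0.01. Without the components counted at days 2.5, 4 and 5, 19.8% of the higher ones lasted. Of abundant components, 5.61% shifted 1.5-fold from 5000 counts up, against 8.05%. Leaving out contigs or components that set days 1, 2.5 and 5 apart was chosen after seeing the data. No paired analysis was possible because a stage is represented by a lone library. At this depth a count under 3 does not tell absence from a low level.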
